A study of Mus musculus with 167 samples.

Results

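miR-184 is a conserved microRNA (miRNA) with 2 arms, mmu-miR-184-3p and mmu-miR-184-5p, and these are 2 of the 1915 mature miRNA rows counted in small RNA libraries from 35 mice. It was chosen from measured values, with earlier results of these data known: in lung, its increase after irradiation was larger in one mouse strain than in the other. The lung contrasts of miR-184 are therefore given as a description with no test, and its tests are reported for heart, brain and blood cells, for sex and for the order of the tissues. Mice were given a single exposure of the whole thorax (whole thorax lung irradiation, WTLI), the body outside the thorax being shielded, or were sham exposed. C3H mice (C3Hf/Sed/Kam) were all female and their tissues were taken at month 4, whereas C57 mice (C57Bl/6) of both sexes were sampled at month 6. The dose also differed slightly between the strains, and the irradiated mice are those that lived to these endpoints. Strain, time after exposure and dose cannot be told apart, and sex differed too. Males were 8 to 10 weeks old at exposure and females 10 to 12 weeks.

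Lung, heart, brain and erythrocytes (RBC) were each sequenced from 8 sham C3H, 7 irradiated C3H, 15 sham C57 and 5 irradiated C57 mice. Leukocytes (WBC) came from 5, 6, 11 and 5 of them. The C57 sham mice were 8 males and 7 females, and the irradiated C57 mice were 4 males and 1 female (replicate 5). Heart and lung lay in the irradiated field and brain did not. The lungs had been flushed with buffer, and all tissues were homogenised whole, so that fewer cells of a type and less RNA per cell cannot be told apart.

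miRNAs are short RNAs cut from a hairpin precursor, and they hold down messenger RNAs that pair with their seed, the bases near the 5′ end. miR-184 is best known from the epithelium of the cornea and lens, where changes in the seed of the human gene cause inherited eye disease, and it is also expressed in brain and testis. In neural stem cells it acts on Numbl, and in corneal epithelium it counteracts miR-205, another epithelial miRNA.

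Both arms and the precursor are shown because the counts come nearly all from one arm. Sequences are from RefSeq on GRCm38.p6, and capitals mark the seed (bases 2 to 8) in the arms and both arms in the hairpin.
mmu-miR-184-3p: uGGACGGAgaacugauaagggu
mmu-miR-184-5p: cCUUAUCAcuuuuccagccagc
hairpin: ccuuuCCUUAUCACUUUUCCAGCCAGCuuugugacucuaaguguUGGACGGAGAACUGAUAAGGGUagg

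The hairpin of 69 bases lies at chr9:89802260-89802328 on the minus strand, with the 3p arm at chr9:89802263-89802284 and the 5p arm at chr9:89802302-89802323. No gene of the GENCODE annotation overlapped it (0 genes), so it is intergenic. The nearest gene was the lincRNA 1700017I07Rik, 0.542 kb away on the plus strand, and the nearest protein-coding genes were Ankrd34c at 63.785 kb and Rasgrf1 at 107.58 kb. The nearest other miRNA gene was 1476.52 kb away, so the hairpin has no clustered neighbour. Among 1679 mature mouse miRNAs in RefSeq, 1623 of them named in the count tables, 0 others shared the seed of the 3p arm and 0 that of the 5p arm. The closest of these to the 3p arm, miR-1961, differed from it at 7 bases over an alignment of at least 17 bases. Counted miRNAs outside this set were not compared.

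The 5p arm was close to absent. It had 3 counts in all, in 2 libraries: 2 in irradiated C3H lung replicate 3, where the 3p arm had 304, and 1 in sham C57 lung replicate 15, where it had 14. No comparison was possible for this arm at this depth. The 3p arm had 8994 counts over all libraries, and the values that follow are for this arm, in RPM (the count over the library's total of miRNA reads, times 10 to the power of 6) unless a log2 scale is named. Library totals were 1794995 to 7865102 miRNA reads, so that 3 counts, the most that a count of 0 allows, stood for 0.381 to 1.67 RPM. Counts in lung ran from 4 to 438, in heart from 4 to 382, in brain from 40 to 423, in WBC from 0 to 9 and in RBC from 0 to 14.

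Without irradiation the 3p arm was highest in brain, lower in lung and heart, and near the floor in blood cells. In C3H sham mice it averaged 35.5 ± 15.8 RPM (SD, n = 8) in brain, 8.30 ± 2.49 (n = 8) in heart, 3.70 ± 1.46 (n = 8) in lung, 0.463 ± 0.498 (n = 5) in WBC and 0.454 ± 0.251 (n = 8) in RBC. In C57 sham mice the means were 43.4 ± 25.3 RPM (n = 15) in brain, 6.27 ± 5.15 (n = 15) in lung, 4.58 ± 2.20 (n = 15) in heart, 0.977 ± 0.717 (n = 11) in WBC and 0.542 ± 0.392 (n = 15) in RBC. Brain stood above every other tissue in both strains. The order was tested on log2(RPM + 1) by two-sided permutation tests of the 20 tissue pairs, 10 in each strain, adjusted by the Benjamini-Hochberg method.

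The sham lung values were part of the contrast that chose miR-184, so pairs with lung are given with no p. In C3H, lung minus heart was -0.996 on the log2 scale, and in C57 it was 0.22, which turned to -0.14 with TMM scaling over all libraries. Lung minus brain was -2.90 in C3H and -2.69 in C57. Of the other pairs, heart lay below brain in C3H (-1.91, exact permutation test, adjusted p = 0.000239) and in C57 (-2.92, permutation test, adjusted p = 5e-05, the smallest that the resamples can give after adjustment). With the same TMM scaling in place of RPM, heart minus brain was -0.75 in C3H (exact permutation test, adjusted p = 0.0349) and -1.61 in C57, and lung minus brain was -1.89 and -1.75. WBC and RBC were not separated in C3H (difference -0.04, exact permutation test, p = 0.869) or in C57 (0.32, permutation test, adjusted p = 0.0963). When tissues were paired within mice, the C3H differences of heart and brain from WBC lost their call, because the 5 C3H sham mice with WBC allow no p below 0.0625. The other calls among heart, brain and blood cells were the same.

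**Figure D1:**
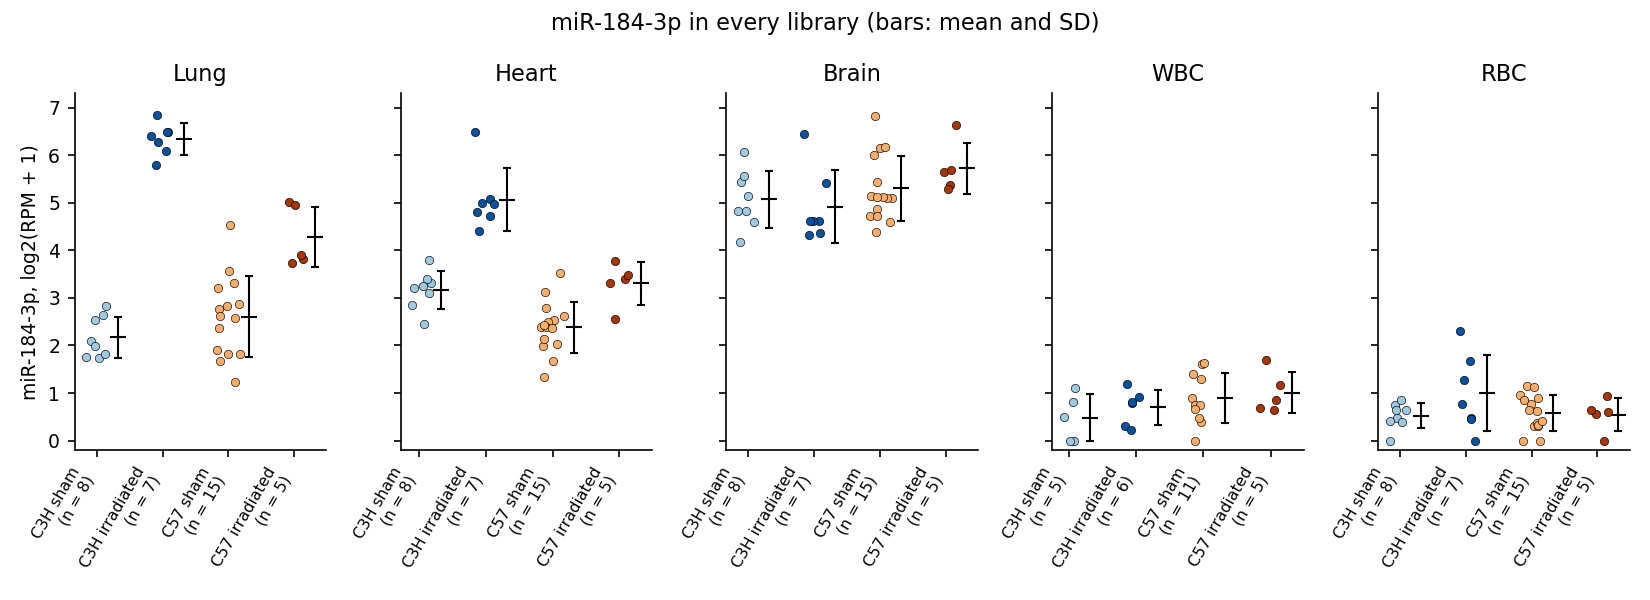
miR-184-3p in each library as log2(RPM + 1), by tissue, strain and irradiation, with the mean and SD of each group. Irradiated C3H lung and heart lie above all their sham libraries, brain is high in every group, and WBC and RBC lie near 0.

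In lung, the values that chose this miRNA were as follows. In the 8 sham C3H lungs the lowest, median and highest values were 2.33, 3.12 and 6.11 RPM. In the 7 irradiated C3H lungs the values of replicates 1 to 7 were 113.4, 88.9, 89.4, 67.3, 83.4, 54.3 and 77.3 RPM. The groups did not overlap, and the lowest irradiated lung was far above the highest sham lung. In read counts these were 9 to 20 against 216 to 438.

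In the 15 sham C57 lungs the lowest, median and highest values were 1.36, 5.13 and 22.1 RPM. In the 5 irradiated C57 lungs they were 31.2, 13.1, 13.996, 12.3 and 29.9 RPM. All 5 were above the sham median and 2 were above every sham lung; the overlap came from sham replicate 1, the 22.1 RPM library, since the next sham lung had 10.9 RPM. Irradiated C57 lungs thus averaged 20.1 ± 9.57 RPM (SD, n = 5), below the lowest irradiated C3H lung, and irradiated C3H lungs 82.0 ± 18.7 RPM (n = 7).

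On the log2 scale of the limma fit the lung change was 4.09 (SE 0.36) in C3H and 1.65 (SE 0.32) in C57, a difference between the strains of 2.44 (SE 0.48). Sham lungs of C3H minus those of C57 gave -0.57 (SE 0.34) on the same scale. The background for a change of at least 2.25-fold with an adjusted p under 0.05 was 9.71% of 350 tested miRNAs in C3H lung and 6% in C57 lung, and 0.286% for the strain difference; nothing is read from these shares, since the same contrasts chose miR-184. Without sham C57 lung replicate 1 the C57 change in lung was 1.78 and the strain difference 2.31.

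miR-7b-5p and miR-216a-5p, both also higher in irradiated lungs of the 2 strains, serve for comparison. miR-7b-5p had lung changes of 4.55 (SE 0.29) in C3H and 4.78 (SE 0.24) in C57, a strain difference of -0.23 (SE 0.37). miR-216a-5p had lung changes of 1.55 (SE 0.31) and 1.20 (SE 0.36), a strain difference of 0.35 (SE 0.47). Neither strain difference passed the limma test in lung (adjusted p = 0.777 and 0.747). The difference between these miRNAs and miR-184-3p was not tested.

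**Figure D2:**
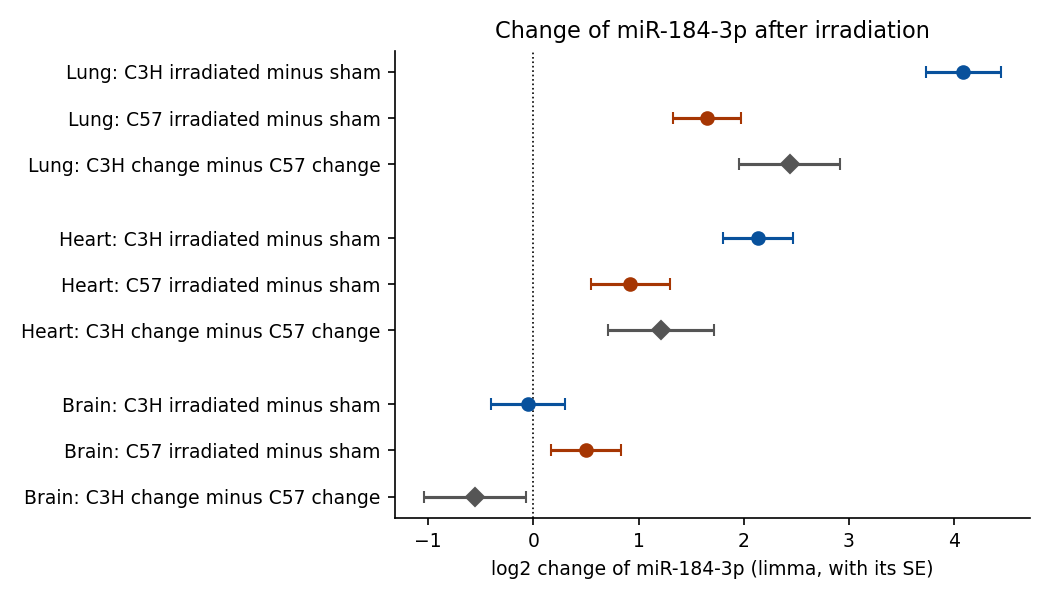
Change of miR-184-3p on the log2 scale of the limma fit, with its SE, for irradiated minus sham in each strain and for the difference of the 2 changes, in lung, heart and brain. C3H lung is at 4.09 and C3H heart at 2.14, and both brain changes lie within 1 of 0.

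Heart also lies in the thorax. The strain contrast that singled out miR-184 was in lung, but its heart values may have been known when it was chosen. The heart p values of miR-184-3p may therefore not be independent of that choice. In C3H heart miR-184-3p rose in every irradiated mouse. The 8 sham hearts had 4.47 RPM at the lowest, 8.35 at the median and 12.998 at the highest. The 7 irradiated hearts had 20.1, 27.2, 88.8, 25.5, 32.8, 30.5 and 30.7 RPM. The groups did not overlap, and 6 of the 7 irradiated hearts lay close together while replicate 3 stood far above them. The log2 change was 2.14 (SE 0.33, higher in 7 of 7 irradiated hearts than in any sham heart), with an adjusted p of 7.81e-06 in limma. It was 1 of 21 called among 312 tested miRNAs in C3H heart (6.73%). How many of the 312 separated the groups fully was not counted. Without replicate 3 the change was 1.84 (limma, adjusted p = 5.56e-06).

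In C57 heart the shift was smaller and did not pass the test. The 15 sham hearts had 1.54 RPM at the lowest, 4.23 at the median and 10.4 at the highest, and the 5 irradiated hearts had 12.7, 8.95, 9.57, 4.90 and 10.2 RPM. All 5 irradiated hearts were above the sham median and 1 was above every sham heart. The log2 difference was 0.92 (SE 0.38, 95% interval 0.15 to 1.69), with p = 0.0204 and an adjusted p of 0.187 in limma; 0.962% of 312 miRNAs were called in C57 heart. The exact permutation test of this miRNA alone, not adjusted for the other miRNAs, gave p = 0.00297 for the 0.92 difference on log2(RPM + 1).

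The C3H change in heart exceeded the C57 change by 1.22 (SE 0.50, 95% interval 0.19 to 2.24), with p = 0.0213 and an adjusted p of 0.256 in limma, so that a strain difference in heart was not called. None of 312 miRNAs were called for this difference in heart (0%), while 51 had an unadjusted p under 0.05. edgeR called 0 and DESeq2 called 2, and limma called 4 with the loose filter and 1 with letter as a covariate. Without C3H replicate 3 the difference was 0.93 (limma, adjusted p = 0.322). Sham C3H hearts exceeded sham C57 hearts by 0.62 (SE 0.33, limma, adjusted p = 0.230), beside a background of 4.49% called. All 8 sham C3H hearts were above the C57 sham median, and the exact permutation test of this miRNA alone, not adjusted for the other miRNAs, gave p = 0.00171 for a difference of 0.78 on log2(RPM + 1). With library size alone the difference was 0.89 (limma, adjusted p = 0.0256), under the fold minimum, and with sex as a covariate it was 0.37 (limma, adjusted p = 0.459). The value moved from 0.09 in the libraries with letter A in their titles to 1.16 (limma, adjusted p = 0.0388) in those with letter B, just under the fold minimum. The labels do not say what the letter stands for.

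The C3H heart change was present within both letters. It was 2.89 (limma, adjusted p = 0.00256) with 4 sham and 3 irradiated hearts of letter A, the set that holds replicate 3, and 1.41 (limma, adjusted p = 0.0102) with 4 and 4 hearts of letter B. In C3H lung, where there is no test, the changes within letters A and B were 4.31 and 3.94. In C57 lung they were 1.47 and 1.90.

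miR-216a-5p was also higher in irradiated C3H heart. In C3H heart it changed by 2.73 (SE 0.28), which passed the limma test (adjusted p = 3.14e-09). The C57 heart value was 0.42 (SE 0.48) and did not pass (adjusted p = 0.748). Its strain difference in heart was 2.31 (SE 0.56), which just missed the threshold (limma, adjusted p = 0.0532). miR-7b-5p, the miRNA with the larger lung changes, had 0.13 (SE 0.40) and 0.26 (SE 0.43) in C3H and C57 heart. Neither passed the limma test (adjusted p = 0.840 and 0.800).

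Lung and heart of the same mouse were set side by side. In sham C3H mice the heart held more miR-184-3p than the lung on average, and in irradiated C3H mice the lung held more in 7 of 7, by the least in replicate 3 (89.4 RPM in lung and 88.8 in heart). Across the 35 mice, deviations from the group means of log2(RPM + 1) in lung and heart had Pearson r = 0.27 and Spearman rho = 0.30, given as a description with no test because the lung values chose this miRNA. Pearson r without the 2 mice farthest from the lung median was 0.20, and it was -0.32 over the 15 C3H mice and 0.51 over the 20 C57 mice. For lung with brain, WBC and RBC, Pearson r was 0.20, 0.12 and 0.11.

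**Figure D3:**
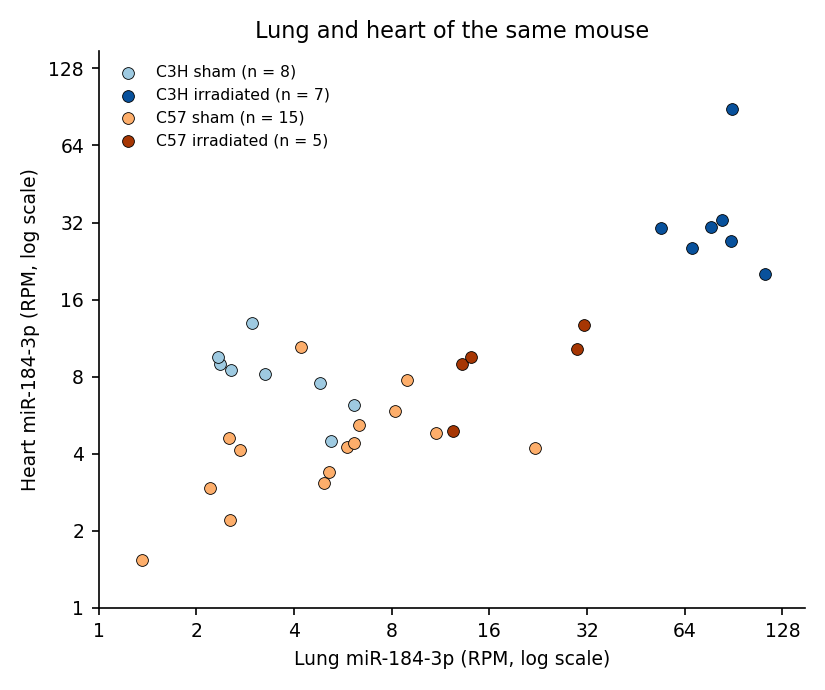
miR-184-3p in lung (x) and heart (y) of each of 35 mice, in RPM on log axes, coloured by strain and irradiation. Irradiated C3H mice sit apart at the upper right, with 54.3 to 113.4 RPM in lung and 20.1 to 88.8 in heart.

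miRNAs typical of other cell types were read beside miR-184-3p in the C3H heart. The ciliated epithelium list holds the miR-34b, miR-34c and miR-449a arms, which airway cells with cilia express strongly. In C3H heart 4 of its 4 tested members rose, by a median of 2.32 log2, against 15 higher and 6 lower of all 312 tested and a median of -0.03. miR-34c-5p went from 75.2 ± 29.0 RPM (SD, n = 8) to 406 ± 154 (n = 7), a change of 2.43 (SE 0.29, limma, adjusted p = 5.55e-08). miR-34b and miR-34c are also known to be switched on by p53, the DNA damage regulator. The fifth member, miR-449a-5p, was too low to test in heart, with 1.66 ± 1.10 RPM in sham and 1.98 ± 1.89 in irradiated C3H hearts. The summed list ran from 61.9 to 200.2 RPM in sham and from 183.6 to 724 in irradiated C3H hearts.

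The epithelial list of miR-200a, miR-200b, miR-200c, miR-141 and miR-429, which epithelium in general expresses, did not move that way. In C3H heart 0 of its 5 members were called, and its sum was 87.4 to 942 RPM in sham and 30.7 to 237 RPM in irradiated hearts. In C3H lung the same list had sums of 12588 to 22592 RPM in sham and 8381 to 22738 in irradiated libraries. Of the squamous epithelium list (miR-205-5p, miR-203-3p and miR-31-5p), 0 of 3 were called in C3H heart or C3H lung. miR-205-5p, the miRNA that miR-184 counteracts in cornea, had 59.3 ± 86.0 RPM in sham (n = 8) and 36.3 ± 12.2 in irradiated (n = 7) C3H lungs, a log2 difference of -0.55 (SE 0.44, limma, adjusted p = 0.353).

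Lists of blood and muscle miRNAs were lower or did not pass. With no fold minimum, 52 of all 312 tested miRNAs had an adjusted p under 0.05 in C3H heart. In C3H heart miR-150-5p, a lymphocyte miRNA, fell by 1.63 (SE 0.16, limma, adjusted p = 1.42e-09), the only call among 5 leukocyte members. miR-451a, made in erythrocytes, fell by 1.33 (SE 0.42, limma, adjusted p = 0.0260), the only call among 4 erythrocyte members, while miR-144-5p, at -1.09 (limma, adjusted p = 0.0112), missed only the fold minimum. None of the 4 cardiac muscle miRNAs were called (0); miR-499-5p, at -0.85 (limma, adjusted p = 0.00613), missed only the fold minimum. In C3H heart the cardiac muscle sum was 216176 to 291001 RPM in sham and 50690 to 246805 in irradiated C3H hearts. The lowest of these sums belonged to replicate 3, the heart with 88.8 RPM of miR-184-3p. That library also had the lowest ciliated sum (183.6 RPM) and the lowest epithelial sum (30.7 RPM) of the irradiated C3H hearts. Its erythrocyte (330.8 RPM), leukocyte (832.6 RPM) and squamous epithelium (350.3 RPM) sums were the lowest among them too. The part of these lists in the heart result was not tested, beyond the value without replicate 3.

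**Figure D4:**
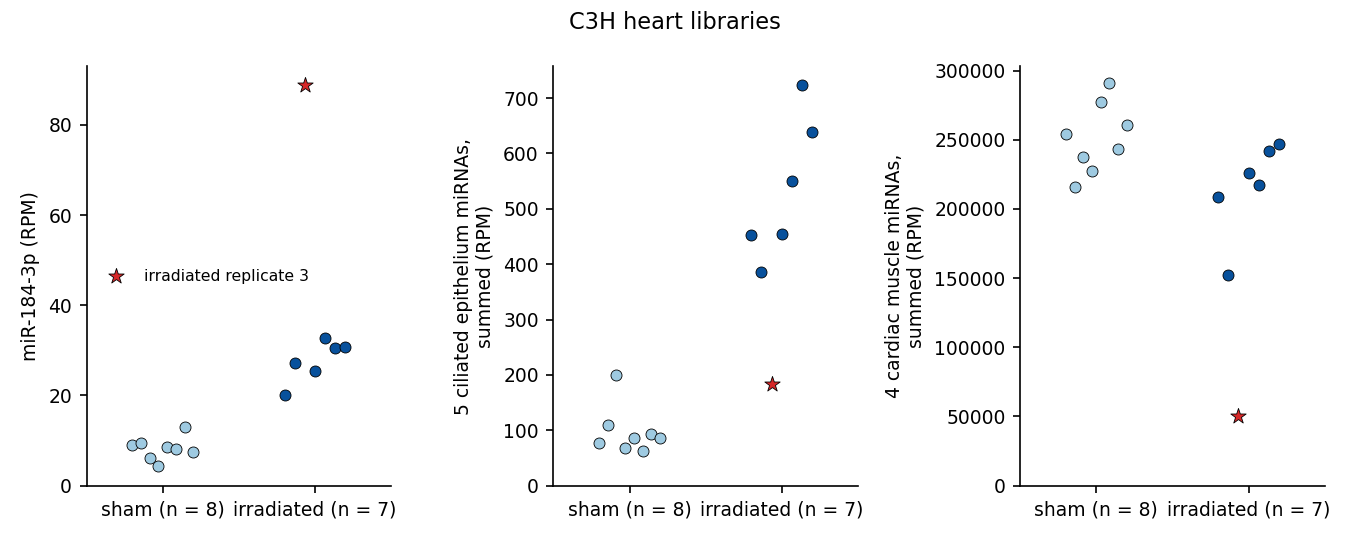
C3H heart libraries, with miR-184-3p, the summed ciliated epithelium miRNAs and the summed cardiac muscle miRNAs in RPM for 8 sham and 7 irradiated mice. Replicate 3 (star) is the highest for miR-184-3p at 88.8 RPM and the lowest for cardiac muscle miRNAs at 50690 RPM.

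In C3H lung 22 of all 350 tested miRNAs were called higher and 12 lower (9.71%), in C57 lung 13 and 8 (6%), and in C57 heart 3 of 312 higher and 0 lower (0.962%), beside which the list counts stand. In C3H lung miR-449a-5p was the 1 of 5 ciliated members called, with 59.7 ± 18.5 RPM in sham and 214 ± 64.9 in irradiated lungs (change 1.51, SE 0.26, limma, adjusted p = 3.06e-05). The cardiac muscle miRNAs miR-208a-3p and miR-499-5p were the 2 of 4 called lower there, with changes of -1.42 (SE 0.39, limma, adjusted p = 0.00509) and -1.46 (SE 0.23, limma, adjusted p = 1.22e-05). None of 5 leukocyte, 4 erythrocyte, 5 mesenchymal or 6 tested neural and eye miRNAs were called in C3H lung (0 each). The endothelial list was miR-126a-3p and miR-126a-5p. Quantile normalisation held the limma difference of miR-126a-3p at 0 in C3H lung and heart, so that it could not be called there. In RPM miR-126a-3p had 387107 ± 24012 in sham (n = 8) and 312158 ± 43603 in irradiated (n = 7) C3H lungs, with 6 of 7 below every sham lung, and 304737 ± 26206 and 352182 ± 33860 in C3H hearts, with 4 of 7 above every sham heart. With no fold minimum, 117 of all 350 tested miRNAs had an adjusted p under 0.05 in C3H lung. Beside that share, some list members had an adjusted p under 0.05 and missed only the fold minimum, in both directions. miR-183-5p, which the retina expresses strongly, went from 544 ± 41.6 RPM (SD, n = 8) to 1059 ± 158.8 (n = 7), a change of 0.73 (limma, adjusted p = 0.000147). Its neighbour miR-182-5p had 0.64 (limma, adjusted p = 0.0108) and the mesenchymal miR-199a-3p 0.61 (limma, adjusted p = 3.13e-05). The neural and eye sum ran from 1080 to 1228 RPM in sham and from 1717 to 2303 in irradiated C3H lungs. This rise was carried by miR-183-5p and miR-182-5p. The list median was 0.04 log2, and miR-96-5p, miR-9-5p, miR-204-5p and miR-124-3p had differences of 0.05, -0.05, 0.03 and -0.36 in C3H lung. In C57 lungs the sum ran from 1124 to 1938 RPM in sham and from 1753 to 2571 in irradiated mice. Lower by less than the fold minimum, with an adjusted p under 0.05 in limma, were miR-1a-3p, miR-133a-3p, miR-126a-5p, miR-200b-3p and miR-203-3p in C3H lung. The part of these miRNAs in the lung values was not tested. In C57 lung miR-9-5p, a neural miRNA, was the 1 called of the lists, with 40.5 ± 31.2 RPM in sham (n = 15) and 136 ± 137 in irradiated lungs (n = 5), of which 2 were above every sham lung (1.33, SE 0.44, limma, adjusted p = 0.0326). Missing only the fold minimum there were miR-449a-5p (0.76), miR-499-5p (-1.15), miR-203-3p (-0.60) and miR-145a-5p (-0.53). Their adjusted p values in limma were 0.0326, 0.0401, 0.0326 and 0.0475. With no fold minimum, 58 of all 350 tested miRNAs passed in C57 lung. In C57 heart miR-34c-5p was the 1 called (1.25, SE 0.30, limma, adjusted p = 0.00734), from 46.0 ± 20.9 RPM (n = 15) to 112 ± 33.002 (n = 5). In C57 heart miR-150-5p, at -0.85 (limma, adjusted p = 0.000312, 4 of 5 below every sham heart), and miR-34b-3p, at 1.08 (limma, adjusted p = 0.00537), missed only the fold minimum. With no fold minimum, 11 of all 312 tested miRNAs had an adjusted p under 0.05 there. In C3H heart the neural and eye list had 1 of 6 called, miR-182-5p (1.44, SE 0.50, limma, adjusted p = 0.0436), while miR-204-5p had -0.88 (limma, adjusted p = 0.00683), under the fold minimum, and the list median was -0.11. The mesenchymal list had 0 of 5 called in C3H heart, where miR-145a-5p, at -0.89 (limma, adjusted p = 0.0250), missed only the fold minimum.

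In brain, which was shielded, miR-184-3p showed no change with irradiation that passed the test. In C3H brain the 8 sham libraries had 17.2 RPM at the lowest, 30.8 at the median and 66.4 at the highest. The 7 irradiated ones had 41.5, 86.5, 18.9, 23.5, 19.7, 23.7 and 23.7 RPM. The groups overlapped, and 1 irradiated brain, replicate 2, was above all sham brains. The log2 difference, whose sign was not stable over the alternatives, was -0.05 (SE 0.35, 95% interval -0.77 to 0.67, limma, adjusted p = 0.997), and without replicate 2 it was -0.33. All 5 irradiated C57 brains were above the C57 sham median, and 0 were above every C57 sham brain. In C57 brain the difference was 0.50 (SE 0.33, 95% interval -0.17 to 1.18, limma, adjusted p = 0.541), and without irradiated replicate 5, the female, it was 0.25. With sex as a covariate it was 0.71 (limma, p = 0.0275, adjusted p = 0.197), and with C57 males alone it was 0.56.

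The difference of the 2 brain changes was -0.55 (SE 0.49, limma, adjusted p = 0.782). In limma 0 of 433 miRNAs were called in brain for C3H, for C57 or for the difference (0% each), with 9, 53 and 21 at an unadjusted p under 0.05. edgeR called 0 in each, and DESeq2 called 0, 2 and 0. For C57 brain limma called 3 with sex as a covariate, with 90 at an unadjusted p under 0.05, and 2 with the loose filter. Sham C3H brains minus sham C57 brains gave -0.24 (SE 0.30, limma, adjusted p = 0.674), beside a background of 2.31% called. Its sign was not stable: it was 0.39 in letter A, -0.88 in letter B and 0.068 with C57 males alone.

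Sex was compared among C57 sham mice, where both sexes were present. Male C57 sham brains had a lowest value of 23.3, a median of 33.4 and a highest of 42.6 RPM (mean 31.8 ± 6.08, SD, n = 8). The 7 female brains had 25.5, 20.0, 34.1, 70.3, 112.4, 71.0 and 63.5 RPM (mean 56.7 ± 32.6). Of the 7 female brains, 4 were above all males and 3 were within or below the male range. Those 4 (replicates 12 to 15) had epithelial sums of 8069 to 35848 RPM and ciliated sums of 1006 to 1265 RPM. The 8 males had 172 to 2165 and 1923 to 2329 RPM. The other 3 females (replicates 9, 10 and 11) had epithelial sums of 5863, 352 and 41037 RPM and ciliated sums of 1501, 1932 and 1158 RPM. The part of these sums in the sex difference was not tested. The log2 difference was 0.66 (SE 0.33, 95% interval -0.00476 to 1.33, limma, p = 0.0516, adjusted p = 0.143), beside 3.7% of 433 miRNAs called between the sexes in brain. The irradiated C57 brains of males had 40.7, 38.2, 48.9 and 50.3 RPM, and that of the female had 98.9 RPM.

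In heart the difference between female and male C57 sham mice did not pass the test, and in lung it is given with no test. In lung females had 4.65 ± 1.66 RPM (SD, n = 7) and males 7.69 ± 6.76 (n = 8), a log2 difference of -0.16 (SE 0.39). In heart they had 4.96 ± 2.52 and 4.26 ± 2.01 RPM, a log2 difference of 0.60 (SE 0.42, limma, adjusted p = 0.231). That value depended on the scaling, and was 0.24 with library size alone and 0.19 on log2(RPM + 1). The background of calls between the sexes was 2% in lung, from which nothing is read, and 8.33% in heart. With C57 males alone beside all C3H mice, the C57 lung change was 1.40 and the strain difference in lung 2.68.

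**Figure D5:**
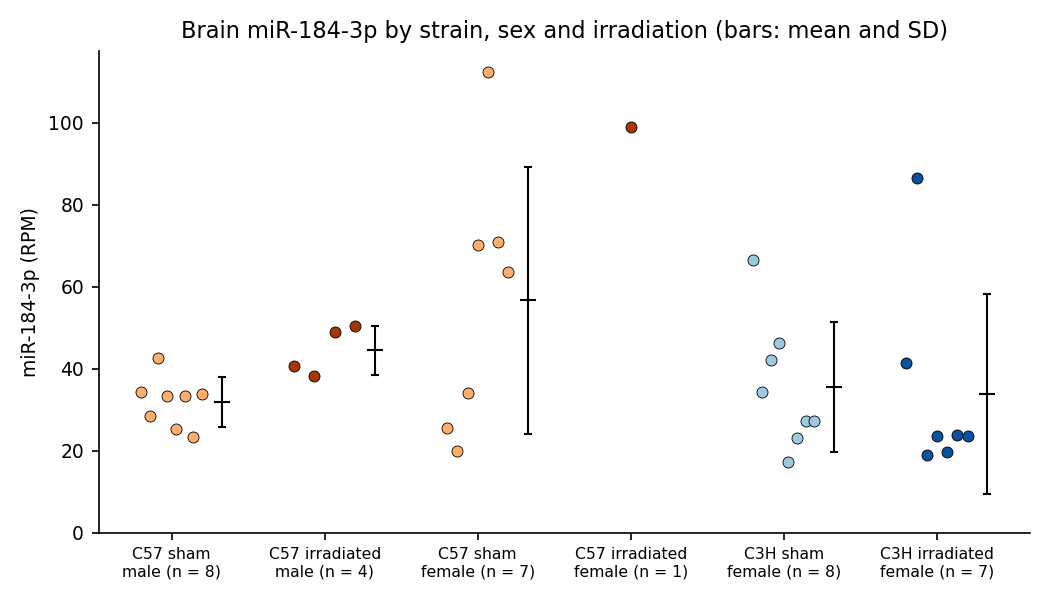
Brain miR-184-3p in RPM for each library, by strain, sex and irradiation, with the mean and SD where a group has more than 1 mouse. Female C57 brains spread from 20.0 to 112.4 RPM, and male C57 sham brains from 23.3 to 42.6 RPM.

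In blood cells miR-184-3p was at or near the floor. It failed the filter on low counts in both fractions and was compared by exact permutation tests on log2(RPM + 1), 8 in all, adjusted together. Irradiated C3H leukocytes had 0.719, 0.231, 1.27, 0.755, 0.890 and 0.168 RPM, and sham ones 0, 1.15, 0, 0.750 and 0.412. The groups overlapped throughout (difference 0.22, exact permutation test, p = 0.398, adjusted p = 0.637). In C57 leukocytes the difference was 0.11 (exact permutation test, p = 0.691).

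The irradiated C3H RBC fractions had 0.398, 0.378, 0.713, 1.41, 0, 2.19 and 3.97 RPM, the last from 14 counts, while the 8 sham fractions ran from 0 to 0.801 RPM. Of the 7 irradiated fractions 3 were above every sham fraction and 1 had a count of 0. The difference of 0.48 did not pass the test (exact permutation test, p = 0.139, adjusted p = 0.423). Leaving out 1 of the 15 libraries moved the difference between 0.26, without replicate 7 (the 14 counts), and 0.64, without replicate 5 (the fraction at 0). Over these 15 values p ran from 0.0293 to 0.310 (exact permutation tests, not adjusted). In C57 RBC the difference was -0.03 (exact permutation test, p = 0.863). Female C57 sham RBC had 0.281 ± 0.226 RPM (SD, n = 7) and male 0.770 ± 0.369 (n = 8), a difference of -0.46 (exact permutation test, p = 0.0143, adjusted p = 0.114), all from 5 counts or fewer.

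The miRNAs whose values were most like those of miR-184-3p were found by correlation, which is given as a description. Deviations from the group means in 35 lung libraries leave out the mean irradiation effect but keep its spread among mice. Over these deviations they were miR-378a-3p (Pearson r = 0.90), miR-10b-5p (0.79), miR-155-5p (0.78), miR-672-5p (0.76) and miR-342-3p (0.76). Without sham C57 lung replicate 1, the library farthest from its group mean, these were 0.87, 0.76, 0.68, 0.69 and 0.70. Over the 20 means of tissue, strain and irradiation groups they were miR-335-3p and miR-335-5p, the arms of 1 hairpin (both 0.93), miR-125a-3p (0.93), miR-125b-1-3p (0.92) and miR-34a-5p (0.92). Without the 4 brain groups, these were 0.89, 0.90, 0.89, 0.88 and 0.88. Those 5 had r of -0.04, -0.08, 0.13, -0.01 and 0.65 over the lung deviations. The first 5 had r of 0.40, 0.78, 0.31, 0.86 and 0.78 over the 20 group means and, without brain, 0.49, 0.89, 0.78, 0.76 and 0.66. With brain left out, miR-10b-5p was thus as close over the groups as the second 5.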

How the data were processed

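Small RNA libraries (QIAseq miRNA kit) of lung, heart, brain, WBC and RBC were used. The authors trimmed reads to miRNA length, aligned them to mouse miRNAs (mm10) and deposited raw read counts per mature miRNA in 5 tables, 1 per tissue. Whether molecular identifiers were collapsed is not stated, so limits from counts cover counting error only. RPM is the share of a library's miRNA reads, scaled by 10 to the power of 6. Totals were 1794995 to 7865102.

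Heart and brain were fitted with limma 3.58.1 (voom, quantile normalisation, R 4.3.3) over 4 groups of strain and irradiation (6 for sex), on miRNAs passing the filterByExpr filter (10 counts, 15 in total), with two-sided tests and Benjamini-Hochberg adjustment. A call needed an adjusted p under 0.05 and 2.25-fold. The lung was fitted the same way, and for miR-184-3p only the size and SE of its irradiation, strain and sex contrasts are given. miR-184-3p did not pass in WBC and RBC, which were compared by exact permutation (scipy 1.17.1). Tissue pairs of 10 or more libraries each used 100000 resamples. edgeR 4.0.16, DESeq2 1.42.0, other normalisations, filters and covariates and leaving out each library were alternatives. The scripts were tested on simulated data.

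The same mice gave all tissues, so tissues are paired by design, and lung deviations correlated with those of heart, brain, WBC and RBC at 0.27, 0.20, 0.12 and 0.11. The replicates are separate mice. The members, cell type lists and tests were chosen with earlier results of these data known. Named miRNAs are both arms, the 5 most correlated with the 3p arm over lung deviations and over group means, miRNAs sharing its seed, the squamous list, miR-7b-5p, miR-216a-5p, and list members that were called; miR-1961 and uncalled members given with values were added after their values were seen. Gene positions are from GENCODE M21 and sequences from RefSeq, on the same build.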

Additional observations from a re-analysis of the deposited data

Results flagged for a closer look

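Dixon's criterion was applied to the RPM of miR-184-3p, not to its log2, in the 15 groups of 4 to 10 libraries. Chance alone marks about 1 in 20 groups if values follow a normal distribution, which RPM values need not do. It marked 3 libraries, each the highest of its group. Irradiated C3H heart replicate 3 had 88.8 RPM against 32.8 in the next of 7 libraries, a gap of 0.816 of the range, and it also had the lowest cardiac muscle sum of its group (50690 RPM). Irradiated C57 brain replicate 5, the only female of its group, had 98.9 RPM against 50.3 in the next of 5, a gap of 0.801 of the range. Irradiated C3H brain replicate 2 had 86.5 RPM against 41.5 in the next of 7, a gap of 0.666 of the range. Both brain libraries had the lowest neural and eye sum of their group, 58151 RPM and 47620 RPM, and the lowest ciliated epithelium sum, 935 RPM and 947 RPM. The part of these sums in the high values was not tested.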

How the results depend on the processing

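Of 640 values under alternatives, 589 kept their direction and their side of the threshold (for counts of calls, a size within 1.5 times) and 20 changed sign, all of values not called in either setting. The C3H brain difference (-0.05) was 0.012 in edgeR, 0.047 in DESeq2 and 0.052 in letter B alone, and ran from -0.33 to 0.082 without 1 library. The sham strain difference in brain (-0.24) was 0.068 beside C57 males alone and 0.39 in letter A. The C57 RBC difference (-0.03) was 0.013 with a loose filter and ran from -0.13 to 0.10 without 1 library, and the C57 WBC difference (0.11) from -0.061 to 0.20. With TMM scaling, sham WBC minus RBC in C3H was 0.018 and sham lung minus heart in C57 was -0.14.

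Paired within mice (replicate block), the sham C3H differences from WBC were 1.53 for lung, 2.64 for heart and 4.63 for brain, the last 2 with an adjusted p of 0.0735 (exact sign-flip test) in place of a call; WBC minus RBC was then 0.046, and pairing changed no other call. Leaving out 1 library moved the C3H RBC difference between 0.26 and 0.64, the highest being without irradiated replicate 5. Its p ran from 0.0293 to 0.310 (exact permutation tests), not adjusted over the 8 blood cell tests. The C3H heart change ran from 1.84 to 2.32 when 1 library was left out and from 1.41 to 2.89 over the other alternatives, called in all. The C57 heart change ran from 0.64 to 1.30; with library size alone its adjusted p was 0.0492 (limma) at 1.03, under the fold minimum. The heart strain difference ran from 0.77 to 1.60, called in none. The lung strain difference ran from 2.05 to 2.84. Sham strain differences moved between 0.09 and 1.16 in heart and between -0.88 and 0.39 in brain. Library size alone shifted the median of all miRNAs by 0.27 in C3H lung, 0.12 in C57 lung and -0.17 in C3H heart; the miR-184-3p changes were then 4.49, 1.89 and 2.01.

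The number of miRNAs called, 34 and 21 in C3H and C57 lung and 21 and 3 in heart, was 117, 58, 52 and 11 with no fold minimum and 13, 8, 10 and 2 with a strict filter of 10 counts in every library. In C57 heart it was also 11 with the loose filter and 5 with library size alone. The strict filter removed miR-184-3p from lung and heart, so it gave no value there. Depth limits the blood fractions, where most libraries held 3 counts or fewer in RBC, and the 5p arm.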
